A study of Mus musculus with 18 samples.

Results

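The colony-stimulating factors are secreted proteins that direct the growth, survival and mobilisation of myeloid cells, and 9 mouse genes of this system, 4 ligands and 5 receptor chains, are described here across a time course of myocardial infarction (MI). They were chosen by name. The ligands were Csf1 (macrophage colony-stimulating factor), Il34 (interleukin 34), Csf2 (granulocyte-macrophage colony-stimulating factor) and Csf3 (granulocyte colony-stimulating factor). The receptor genes were Csf1r, Csf2ra, Csf2rb, Csf2rb2 and Csf3r. Each had 1 row in a table of read counts for 30583 genes. The libraries came from 18 male C57BL/6JR mice, 12 weeks old, in 6 groups of 3. In 5 groups a ligature was tied around the left anterior descending (LAD) coronary artery under pentobarbital anaesthesia, and hearts were taken at 10 min or at 1, 6, 24 or 72 h. In the sham group, labelled 0 h, the suture was passed but not tied. There was no sham group at a later time, so effects of ligation and of time since the operation cannot be told apart. RNA came from the myocardial region of the infarcted left ventricle, and its poly(A) fraction was sequenced as 1 library per mouse, so p-values measure the spread between these mice.

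Csf1 and Il34 are unrelated in sequence but bind the same receptor tyrosine kinase, Csf1r, which is carried by monocytes, macrophages and their progenitors and which these cells need to survive. Csf2 binds a specific alpha chain, Csf2ra, that signals only when joined by a beta chain. Mice have a pair of beta chain genes: Csf2rb, shared with the interleukin 3 and interleukin 5 receptors, and Csf2rb2, whose product is specific to interleukin 3. Csf3 acts through a receptor of its own, Csf3r, which is abundant on neutrophils, and Csf3 is known for releasing neutrophils from bone marrow. After an infarction neutrophils enter the heart first and monocytes follow and become macrophages.

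The labels also give cardiomyocytes as the cell type, although no separation of cells is described. Cardiomyocyte markers (Myh6, Tnnt2, Tnni3, Actn2, Ryr2 and Myl2) summed to 45160 to 49920 counts per M counts (CPM, scaled by the TMM method, where M stands for mega) in sham and to 10790 to 14410 CPM at 72 h. Markers of other cells were present in every group: in sham, fibroblast markers summed to 681 to 717 CPM, endothelial markers to 1095 to 1217 CPM, and monocyte and macrophage markers to 168 to 196 CPM. The 10 neutrophil markers summed to 6.09 to 7.99 CPM in sham, with Ly6g at 0 in all 3 libraries, and lymphocyte markers to 1.82 to 2.43 CPM. In such tissue a change in the number of cells and a change in RNA per cell cannot be told apart. Libraries held 18.2 to 25.1 M counts. Replicate 3 at 24 h stood apart from its group, with a neutrophil marker sum of 989 CPM against 103 and 293 CPM and the lowest cardiomyocyte sum of that group (19760 CPM). Replicate 1 at 6 h had the highest neutrophil marker sum of its group, 1004 CPM against 281 and 463 CPM. Where leaving out either library ended a call or moved a value of a member over 1.5 times, both values are given.

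No member passed the test at 10 min or 1 h, and with all 18 libraries none was called lower than sham at any time. A gene was called when the p-value of edgeR's quasi-likelihood test stayed under 0.05 after Benjamini-Hochberg adjustment across 16311 genes, among which were all 9 members. At 10 min 0 of 9 were called, where 0.0736% of all genes were, and at 1 h 0 of 9, where 0.294% were. DESeq2 also called 0 at both times, and an unadjusted p under 0.05 was reached by 0 members at 10 min and by 1 (Csf1) at 1 h. Csf2 and Csf3 passed the filter on low counts only through the 6 h libraries, the group in which they were high, so they are left out of the counts of every comparison that involves 6 h and are described below by their read counts. At 6 h 3 of the other 7 were called, all higher (Csf2rb, Csf2rb2 and Csf3r), where 28.4% of all genes were called and 16.3% were called higher. At 24 h 6 were called, all higher (Csf1 and the 5 receptor genes), against 43.8% of all genes and 23.7% higher. At 72 h the 5 receptor genes were called, all higher, against 66.4% of all genes and 34.2% higher. In a test of any difference from sham at any time, 6 of the other 7 were called, all except Il34, against 78.4% of all genes. These comparisons share the same 3 sham libraries.

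Between consecutive times the step from 1 h to 6 h held most calls. At 1 h against 10 min 0 members were called (0.307% of all genes), with 0 at an unadjusted p under 0.05 and 0 by DESeq2. At 6 h against 1 h 4 of the other 7 were called, all higher (Csf1, Csf2rb, Csf2rb2 and Csf3r), where 24.5% of all genes were called and 14.5% higher. At 24 h against 6 h 2 of the other 7 were called, Csf1r and Csf2ra, both higher, where 27.8% of all genes were called, 14.2% higher and 13.7% lower. At 72 h against 24 h 3 were called, Csf1r higher and Csf1 and Csf3 lower, where 50.5% were called, 24.4% higher and 26.1% lower.

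**Figure D1:**
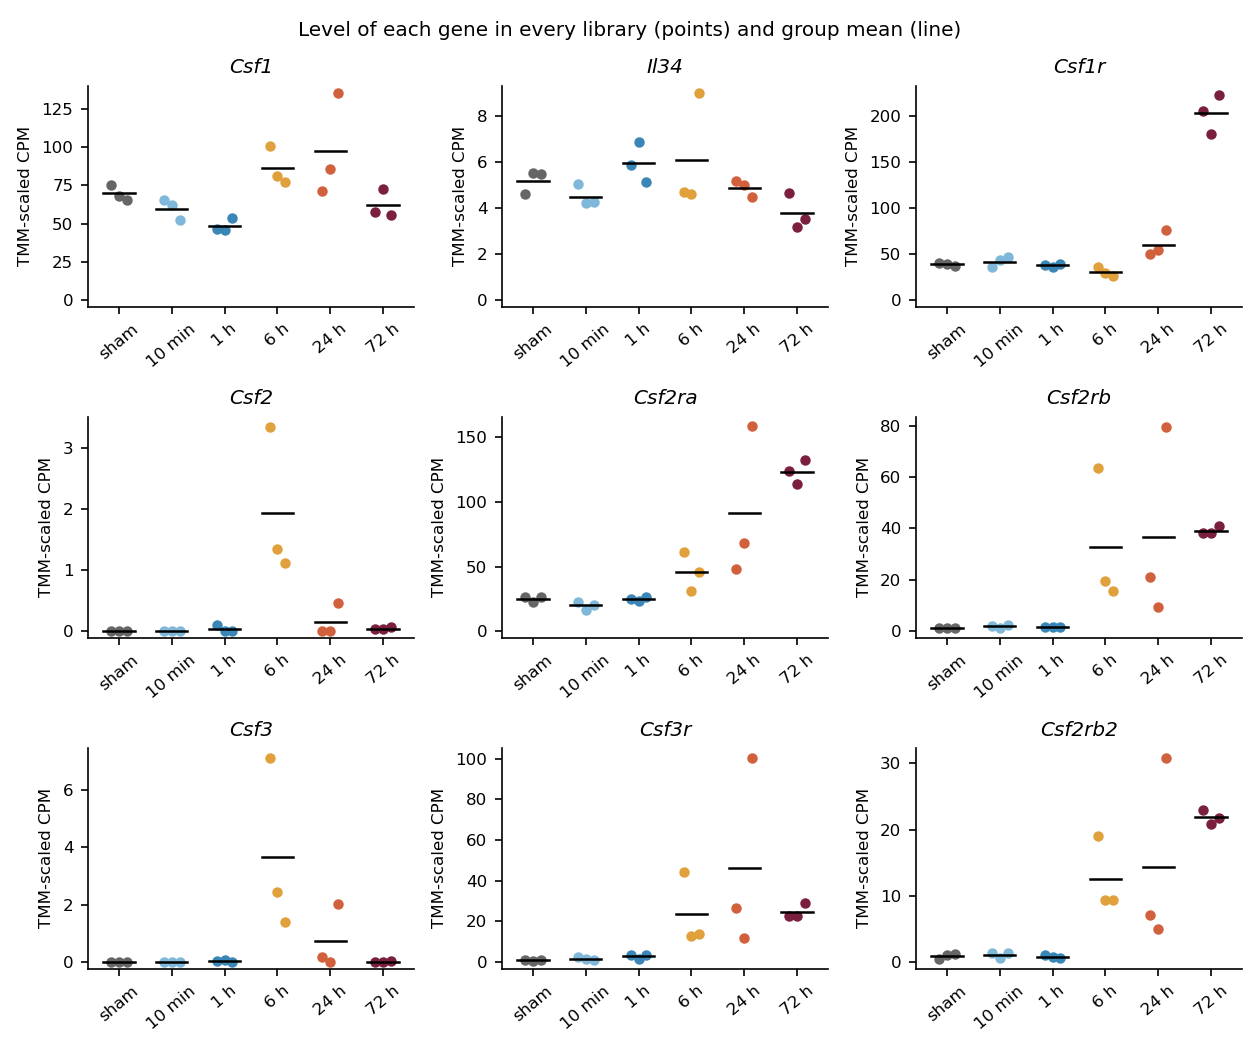
Level of each of the 9 genes (TMM-scaled CPM, linear axes that differ between panels) in every library (points, 3 per group) and as the group mean (line). Csf2 and Csf3 are above 1 CPM in all 3 libraries at 6 h and near 0 elsewhere except in replicate 3 at 24 h; Csf1r is highest in the 3 libraries at 72 h.

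Csf2, on chromosome 11 (mm10, 54247271 to 54249667, minus strand), was read almost only at 6 h. No sham or 10 min library held a Csf2 count, and the 1 h libraries held 2, 0 and 0. At 6 h the libraries held 56, 28 and 21 counts, at 24 h 0, 0 and 9, and at 72 h 1, 1 and 2. The 6 h libraries were therefore above every other library, the nearest being replicate 3 at 24 h. In scaled units the 6 h level was 3.34, 1.34 and 1.12 CPM, a mean of 1.93 ± 1.22 CPM (SD, n = 3), at least 13.2-fold higher than sham when sham is set at a floor of 3 counts per library. Without replicate 1 at 6 h it was at least 8.37-fold higher. Over summed counts the ratio of 6 h to 1 h was 48.2, with an exact 95% counting interval of 13 to 403, and 32.6 (8.56 to 277) without that library. At 24 h against sham the edgeR adjusted p was 0.123.

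Csf3, also on chromosome 11 (98701263 to 98703629, plus strand), had the same timing and a wider spread. Counts were 0 in all sham and 10 min libraries, 1, 1 and 0 at 1 h, 119, 51 and 26 at 6 h, 4, 0 and 39 at 24 h, and 0, 0 and 1 at 72 h. The 39 counts of replicate 3 at 24 h lay within the range of the 6 h libraries, while the other libraries at 24 h lay near 0. The 6 h level was 7.09, 2.44 and 1.39 CPM (mean 3.64 ± 3.04 CPM), at least 24.8-fold higher than sham at the floor of 3 counts per library, and the bound was 13-fold when replicate 1 at 6 h was left out. The ratio of summed counts to 1 h was 90 (95% counting interval 24.6 to 748), and 51.3 (13.7 to 431) without that library. For 24 h against sham the edgeR adjusted p of 0.0521 missed the threshold (0.0112 without replicate 2 at 24 h, 0.259 without replicate 3). The fall from 24 h to 72 h (adjusted p = 0.0359) rested on replicate 3 at 24 h: without it the adjusted p was 0.313 (and 0.0932 to 0.0988 without any 1 of the 72 h libraries). It was also not called with no filter on counts (0.115), with library totals alone (0.0521) or by limma (0.208). Within each of these 6 h and 24 h groups, the library with most Csf2 and most Csf3 was the one with the highest neutrophil marker sum. The part of that difference between libraries in these results was not tested. In all other groups both genes were at or below 4 counts per library, too few to show whether low expression was present.

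Csf1, on chromosome 3 (107741048 to 107760469, minus strand), was the most abundant ligand at every time. It lay at 75.4, 68.3 and 65.3 CPM in sham, 65.1, 61.8 and 52.6 CPM at 10 min and 46.7, 45.7 and 53.4 CPM at 1 h. All 1 h libraries were below all sham libraries, by -0.52 ± 0.18 on the log2 scale (SE), but the edgeR adjusted p was 0.659. It was called when the 6 libraries of that comparison were fitted alone (0.00167). At 6 h the libraries read 100.8, 80.9 and 76.9 CPM, all above the 1 h and the sham libraries. The rise from 1 h to 6 h was 1.77-fold (log2 0.83 ± 0.18, edgeR adjusted p = 0.00408), and it was called in each of the 18 fits that left out 1 library. Against sham the 6 h libraries were higher by 0.31 (adjusted p = 0.225).

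At 24 h Csf1 read 71.1, 85.3 and 135 CPM and at 72 h 57.3, 72.4 and 55.7 CPM, and both groups overlapped sham. The 24 h group was called against sham (1.39-fold, log2 0.48 ± 0.18, edgeR adjusted p = 0.0418). This rested on replicate 3, without which the log2 difference was 0.17 (adjusted p = 0.363). Leaving out any 1 of the 3 sham libraries also ended the call (0.0563 to 0.119), as did 3 of the 6 libraries at 10 min and 1 h (0.0501 to 0.0512), and it was not called with no filter (0.099) or in the 6-library fit (0.124). From 24 h to 72 h Csf1 fell by 0.65 ± 0.18 (adjusted p = 0.00656), and by 0.35 (0.0378) without replicate 3 at 24 h. That call was lost with library totals alone (-0.27, adjusted p = 0.215), by limma on log2(FPKM + 1) (-0.21, 0.324) and in the 6-library fit (0.0597). The 72 h value against sham was -0.17 (adjusted p = 0.419) and depended on the scaling: with library totals alone it was 0.42 (0.0433).

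Il34, on chromosome 8 (110741829 to 110805924, minus strand), was the one member not called at any time or in any comparison with all 18 libraries. It read 4.60, 5.50 and 5.46 CPM in sham, 5.04, 4.2 and 4.24 CPM at 10 min, 5.84, 6.87 and 5.13 CPM at 1 h, 4.71, 4.59 and 9.0 CPM at 6 h, 5.18, 4.99 and 4.49 CPM at 24 h, and 4.67, 3.17 and 3.50 CPM at 72 h. Each of the 5 later groups overlapped sham, and 1 library, replicate 3 at 6 h, was well above the rest. The log2 difference was largest at 72 h (-0.46 ± 0.23, edgeR adjusted p = 0.0822) and had the other sign, 0.12, with library totals alone. It passed the threshold without replicate 3 at 6 h (0.0236), without replicate 1 at 72 h (0.033) and in the 6-library fit (0.0341). For any time the adjusted p was 0.0748.

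Because Csf1 and Il34 share a receptor, their balance was read per length in each library (counts per kilobase and M counts). Csf1 stood above Il34 in every one of the 18 libraries, with a geometric mean ratio of 4.99 in sham, 4.93 at 10 min, 3.05 at 1 h, 5.48 at 6 h, 7.12 at 24 h and 6.11 at 72 h. At 1 h the 3 ratios (2.96, 2.47 and 3.86) were all below the sham ratios (6.08, 4.61 and 4.44), giving a two-sided exact permutation p of 0.1, the smallest that 3 against 3 allows, and an adjusted p of 0.5 over the 5 comparisons. The exact permutation p was 0.9 at 10 min, 0.8 at 6 h, 0.2 at 24 h and 0.6 at 72 h, so no difference in balance from sham was shown at this sample size.

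**Figure D2:**
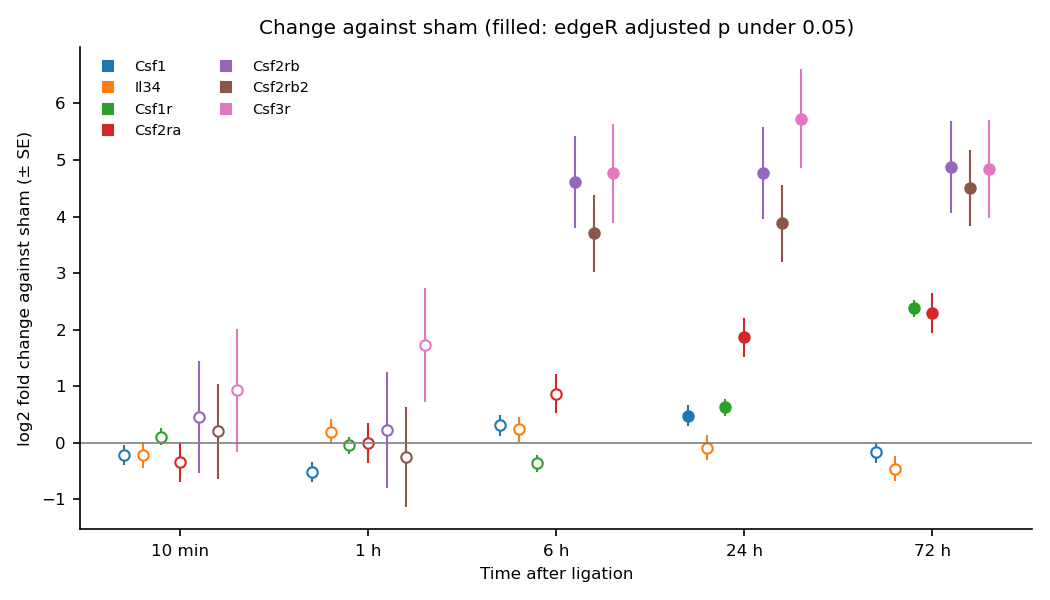
Log2 fold change against sham with its SE (vertical axis) at each time after ligation for the 2 Csf1r ligands and the 5 receptor genes, from edgeR; filled points have an adjusted p under 0.05. Csf2rb, Csf2rb2 and Csf3r stand at 3.71 or more from 6 h on, Csf2ra is filled from 24 h on, and Csf1r passes from -0.36 at 6 h to 2.38 at 72 h.

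Among the receptors, Csf3r had the highest fitted rise at 24 h. The gene lies on chromosome 4 (126024550 to 126044440, plus strand). It read 0.809, 0.778 and 0.977 CPM in sham, 2.43, 1.51 and 1.06 CPM at 10 min and 3.33, 1.72 and 3.44 CPM at 1 h. All 10 min and all 1 h libraries were thus above all sham libraries, but the spread left both uncalled (edgeR adjusted p = 0.932 and 0.944). At 1 h the log2 difference of 1.72 was called only when the 6 libraries of that comparison were fitted alone (0.00631). At 6 h Csf3r read 44.2, 12.6 and 13.9 CPM, at 24 h 26.6, 11.7 and 100.3 CPM, and at 72 h 22.8, 22.5 and 29.2 CPM, and none of these 9 libraries overlapped the first 3 groups. The rise against sham was 27.1-fold at 6 h (log2 4.76 ± 0.88, edgeR adjusted p = 0.00157), 53.2-fold at 24 h (5.73 ± 0.88, 0.000239) and 28.7-fold at 72 h (4.84 ± 0.87, 0.000253). Without replicate 3 at 24 h that value was 4.47 (0.000279), and without replicate 1 at 6 h the 6 h value was 3.94 (0.00674; mean of the other libraries 13.3 CPM). Without replicate 1 at 6 h the step from 1 h to 6 h lost its call (log2 2.22, adjusted p = 0.0601, against 3.04 and 0.0112 with all libraries). Without replicate 2 at 1 h its adjusted p was 0.051.

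The neutrophil marker sum and Csf3r were both above sham in every library of every ligated group, in changing proportion. The sum was 9.83 to 28.1 CPM at 10 min and 19.8 to 28.8 CPM at 1 h. It was 281 to 1004 CPM at 6 h, 103 to 989 CPM at 24 h and 56.2 to 72.3 CPM at 72 h. Of the 10 markers, 10, 9 and 7 were called higher than sham at 6, 24 and 72 h. Of all genes 16.3%, 23.7% and 34.2% were called higher. At 72 h against 24 h 6 markers were called lower, where 26.1% of all genes were. Ly6g, Il1r2, Mmp8, Retnlg and Cxcr2 averaged 0, 0.0321, 0.0173, 0.0864 and 0.175 CPM in sham. They passed the filter on low counts through the groups in which they were high, so their calls add no support. Csf3r from 24 h to 72 h changed by -0.89 (edgeR adjusted p = 0.26), and by 0.37 (0.561) without replicate 3 at 24 h. The ratio of Csf3r to the marker sum, a description with no test, was 0.122 in sham, 0.107 at 10 min, 0.12 at 1 h, 0.039 at 6 h, 0.102 at 24 h and 0.39 at 72 h (geometric means). All 3 libraries at 72 h (0.405, 0.311 and 0.47) had a higher ratio than any other library. The part of neutrophil number in the Csf3r values was not tested.

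**Figure D3:**
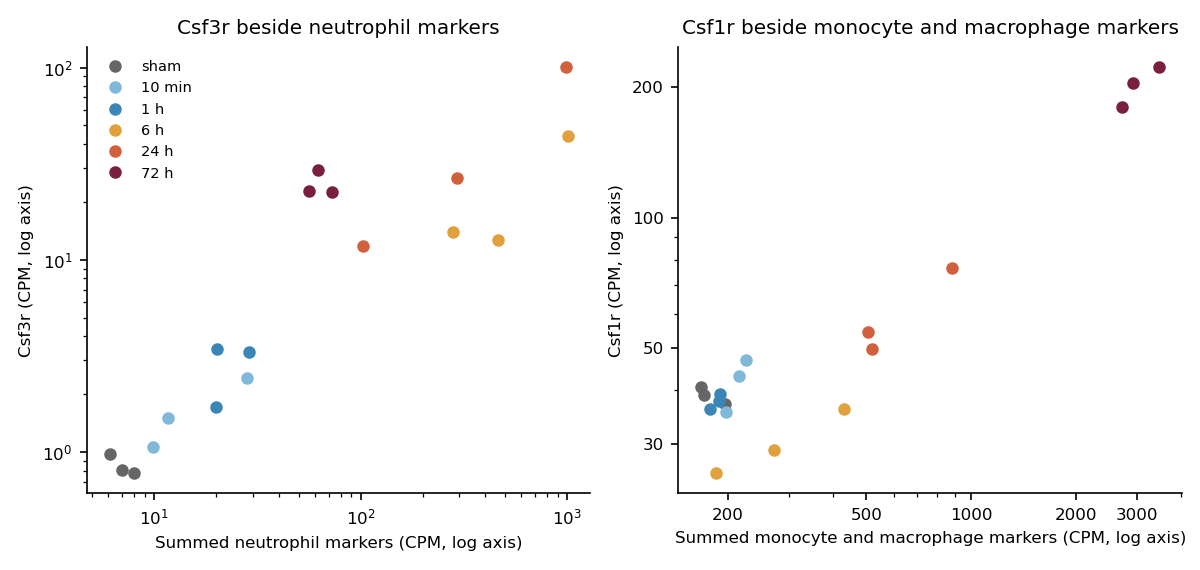
Csf3r against the summed neutrophil markers (left) and Csf1r against the summed monocyte and macrophage markers (right), in CPM on log axes, 1 point per library and 1 colour per group. At 72 h Csf3r reads 22.5 to 29.2 CPM beside a marker sum of 56.2 to 72.3 CPM; at 6 h Csf1r reads 25.7 to 36.2 CPM beside a marker sum of 185 to 430 CPM.

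Both beta chain genes rose steeply between 1 h and 6 h and stayed high. They are neighbours on chromosome 15, Csf2rb at 78325752 to 78353847 on the plus strand and Csf2rb2 at 78282507 to 78305721 on the minus strand, and are near copies: 2505 of 2631 aligned coding bases were identical (95.2%). The first 120 coding bases are shown, with the 4 bases that differ in capitals, to show how little separates reads of the 2 genes:
Csf2rb: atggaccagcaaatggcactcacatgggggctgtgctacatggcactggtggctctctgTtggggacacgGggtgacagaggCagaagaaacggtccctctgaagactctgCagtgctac
Csf2rb2: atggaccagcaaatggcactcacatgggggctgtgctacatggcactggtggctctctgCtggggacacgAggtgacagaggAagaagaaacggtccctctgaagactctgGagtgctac
Of all 100-base windows in the annotated transcripts of Csf2rb, 4.63% also occur in Csf2rb2, and 6.82% the other way round; for 50-base windows the shares are 12.3% and 18.4%. How reads that match both genes were counted is not given in the sources used here, so the split between the pair is uncertain, and what follows for each may in part be read from the other.

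Csf2rb read 1.37, 1.35 and 1.29 CPM in sham, 1.34 to 2.29 CPM at 10 min and 1.5 to 1.66 CPM at 1 h. It then read 63.7, 19.4 and 15.5 CPM at 6 h, 21.1, 9.55 and 79.5 CPM at 24 h, and 38.3, 38.3 and 40.9 CPM at 72 h. Every library from 6 h on was above every earlier one, and the spread within a group was wide at 6 h and 24 h and narrow at 72 h. Against sham the rise was 24.5-fold at 6 h (log2 4.61 ± 0.82, edgeR adjusted p = 0.00119), 27.2-fold at 24 h (4.77 ± 0.82, 0.000518) and 29.3-fold at 72 h (4.87 ± 0.81, 0.000134). Without replicate 1 at 6 h the 6 h value was 3.71 (0.00452; mean of the other libraries 17.5 CPM). The later steps were not called with all libraries. Without replicate 3 at 24 h the mean at 24 h was 15.3 CPM in place of 36.7 CPM, the value against sham 3.51 (0.00117), and the rise from 24 h to 72 h was called (1.36, adjusted p = 0.0393).

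Csf2rb2 followed at a lower level. It read 0.506, 1.09 and 1.24 CPM in sham, 0.588 to 1.43 CPM at 10 min and 0.583 to 1.06 CPM at 1 h, then 19.0, 9.33 and 9.37 CPM at 6 h, 7.08, 4.99 and 30.8 CPM at 24 h and 22.9, 20.8 and 21.7 CPM at 72 h. As for Csf2rb, no library from 6 h on overlapped an earlier one. The rise against sham was 13.1-fold at 6 h (log2 3.71 ± 0.68, edgeR adjusted p = 0.00132), 14.7-fold at 24 h (3.88 ± 0.68, 0.00051) and 22.8-fold at 72 h (4.51 ± 0.68, 3.97e-05). Without replicate 3 at 24 h the 24 h value was 2.65 (8.68e-05; mean of the other libraries 6.03 CPM). Between 6 h and 24 h the direction depended on replicate 3 at 24 h: with it the log2 difference was 0.17 (adjusted p = 0.839), and without it -1.06 (0.0234), followed by a called rise of 1.85 (0.000123) to 72 h.

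Csf2ra, on chromosome 19 (61223957 to 61228429, minus strand), encodes the chain that binds Csf2 and was already well expressed in sham. It read 26.4, 22.6 and 26.2 CPM in sham, 22.6, 16.7 and 20.5 CPM at 10 min and 24.9, 23.4 and 26.5 CPM at 1 h. It read 61.1, 30.8 and 45.9 CPM at 6 h, 47.7, 68.2 and 158.6 CPM at 24 h and 124.2, 113.6 and 132.4 CPM at 72 h, so that all libraries from 6 h on were above all earlier ones. The difference from sham at 6 h missed the threshold (log2 0.87 ± 0.35, edgeR adjusted p = 0.0747). It passed in the 6-library fit (0.0315), without replicate 2 at 6 h (0.0371), and without replicate 1 (0.0328) or replicate 3 (0.00319) at 24 h. Csf2ra was 3.64-fold above sham at 24 h (1.87 ± 0.35, 0.000799) and 4.92-fold at 72 h (2.30 ± 0.35, 4.62e-05). Without replicate 3 at 24 h the 24 h value was 1.21 (0.000517). The step from 6 h to 24 h then lost its call (0.34, adjusted p = 0.262, against 1.00 and 0.0415), which it also lost in 13 of the other 17 fits that left out 1 library (0.0509 to 0.141). The step from 24 h to 72 h gained a call without that library (1.08, 0.000568, against 0.43 and 0.299).

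Per length, the summed beta chains stood far below Csf2ra at rest and closer to it later. This ratio was chosen after the values were seen and is given with no test. The sum includes Csf2rb2, whose product is specific to interleukin 3, so it is not a ratio of the Csf2 receptor chains alone. The ratio of Csf2rb plus Csf2rb2 to Csf2ra was 0.0277 to 0.0426 in sham, 0.0454 to 0.0705 at 10 min and 0.0311 to 0.0405 at 1 h. It was 0.213 to 0.529 at 6 h, 0.0836 to 0.272 at 24 h and 0.186 to 0.204 at 72 h, with no overlap between the first 3 and the last 3 groups. The ratio of Csf2rb2 to Csf2rb, also chosen after the values were seen, had group means of 0.422 to 0.683 and overlapped between sham (0.383 to 0.997) and every other group.

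PU.1, a factor that many myeloid receptor genes are known to need, recognises a purine-rich core. Its letters were searched in the 250 bases before the RefSeq start (build GRCm38.p6) of 5 of the 9 members: Csf1, Csf2, Csf2ra, Csf2rb2 and Csf3r. GAGGAAG, on either strand, occurred in the 3 receptor genes among these 5 and in neither ligand. It occurs in 10.6% of all 32851 promoters of that length. The 30 bases around each match are shown in the direction of the gene, with the match in capitals:
Csf2ra, chr19:61228419-61228448, minus strand: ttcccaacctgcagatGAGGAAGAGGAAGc
Csf2rb2, chr15:78305871-78305900, minus strand: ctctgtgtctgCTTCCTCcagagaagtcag
Csf3r, chr4:126024562-126024591, plus strand: ctccttcctgaGAGGAAGgggctgtctatg
Csf2ra holds 2 overlapping matches and Csf2rb2 holds 1 on its other strand. The Csf3r stretch lies inside the longer gene model used for the counts. The Csf2ra stretch runs into its gene model too, with the match at -8 to -2 inside it and the other match partly so. The Csf2 window ends upstream of its gene model, so the bases directly before that model were not searched. GATTCC, the core of an element described in cytokine promoters (9.35% of all promoters), and TGACTCA, the AP-1 site (4.46%), were found in none of the 5. A match is a stretch of letters and not a measured binding site. Spi1, the gene for PU.1, read 8.32 ± 1.45 CPM in sham, 23.8 ± 9.69 CPM at 6 h, 52.3 ± 30.6 CPM at 24 h and 111 ± 3.88 CPM at 72 h (edgeR adjusted p = 0.0053, 5.6e-05 and 3.58e-07). It was named after its values were seen.

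Csf1r, on chromosome 18, rose at 24 h and further at 72 h. It read 40.7, 39.0 and 37.2 CPM in sham, 35.5, 43.0 and 46.9 CPM at 10 min and 37.8, 36.1 and 39.2 CPM at 1 h. At 6 h it read 36.2, 29.1 and 25.7 CPM, all below sham. This was a log2 difference of -0.36 ± 0.15 that missed the threshold (edgeR adjusted p = 0.0797) and passed it without replicate 1 at 6 h (-0.51, 0.0327), without replicate 3 at 24 h (0.0251), with no filter on counts (0.0433) and with library totals alone (-0.47, 0.0312). At 24 h it read 49.6, 54.3 and 76.4 CPM and at 72 h 204.7, 180.2 and 222.2 CPM, and neither group overlapped any earlier one, although the highest 10 min library (46.9 CPM) came close to the lowest at 24 h. The rise against sham was 1.54-fold at 24 h (0.62 ± 0.15, 0.00257) and 5.19-fold at 72 h (2.38 ± 0.15, 4.21e-10). Both consecutive steps were called: 1.98-fold from 6 h to 24 h (0.98 ± 0.15, adjusted p = 0.000185) and 3.37-fold from 24 h to 72 h (1.75 ± 0.15, 3.27e-08). Without replicate 3 at 24 h the value against sham was 0.42 (0.0178). Hmgxb3 overlaps Csf1r on the opposite strand and held 305 to 537 counts per library. Whether the counting used strand is not given in the sources used here. Csf1r held 483 to 609 counts at 6 h, where Hmgxb3's count was of similar size, and 5918 to 6982 counts at 72 h.

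At 6 h Csf1r was below sham in all libraries while most monocyte and macrophage markers were called higher, and at 24 h and 72 h both were above sham. The marker sum was 185 to 430 CPM at 6 h, 506 to 881 CPM at 24 h and 2707 to 3471 CPM at 72 h. Of the 10 markers, 7, 8 and 10 were called higher than sham and 2, 0 and 0 called lower. Of all genes 16.3%, 23.7% and 34.2% were called higher, and 28.4%, 43.8% and 66.4% were called in all. The ratio of Csf1r to this sum, a description with no test, was 0.190 to 0.243 in sham, 0.0842 to 0.139 at 6 h, 0.0867 to 0.107 at 24 h and 0.0640 to 0.0699 at 72 h, lower in every library from 6 h on than in any sham library. Lyz2 made up most of the sum in sham (mean 129.5 CPM) and at 72 h (2369 CPM), so there the ratio was mostly Csf1r to Lyz2. At 6 h the contrast with Csf1r did not hold for every marker. Cd14 averaged 80.11 CPM (24.29 to 166 CPM over the 6 h libraries) against 6.8 CPM in sham, and Itgam 16.83 against 2.011 CPM. Lyz2 averaged 143.3 CPM at 6 h against 129.5 CPM in sham. The part of neutrophils in these 6 h marker values was not tested. The only markers with a lower mean than in sham were Adgre1 (7.195 against 9.883 CPM) and Cx3cr1 (1.201 against 6.635 CPM). The 6 markers of resident macrophages summed to 69.3 to 82.0 CPM in sham and 164 to 201 CPM at 72 h. At 72 h 3 were called higher and 2 lower, where 34.2% of all genes were called higher and 66.4% in all. The part of cell number in the Csf1r values was not tested.

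**Figure D4:**
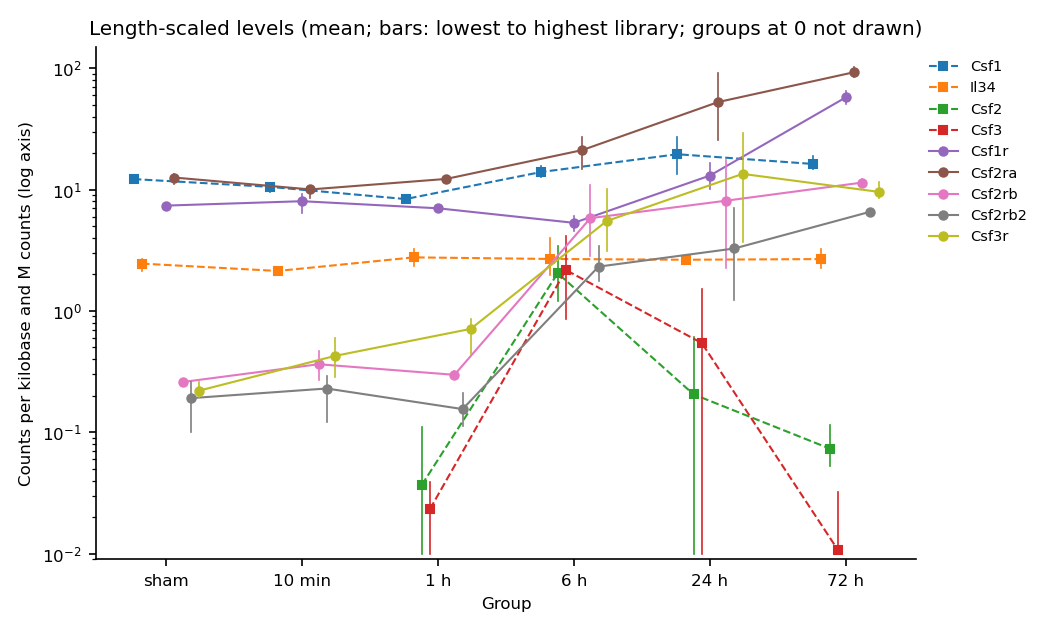
Mean level per length (counts per kilobase and M counts, log axis) of the 9 genes in each group, with bars from the lowest to the highest library; ligands are squares with dashed lines, receptors circles. Groups at 0 are not drawn, and a bar that reaches 0 ends at the lower edge; Csf2ra passes from 12.6 in sham to 92.9 at 72 h.

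Compared per length, Csf2ra or Csf1 stood first in every group and the order below changed with time. In sham Csf2ra (12.6 ± 1.33 counts per kilobase and M counts) and Csf1 (12.2 ± 0.74) overlapped, followed by Csf1r (7.39 ± 0.208) and Il34 (2.46 ± 0.272), each apart from its neighbours in all libraries. Csf2rb (0.259), Csf3r (0.22) and Csf2rb2 (0.191) overlapped one another far below, and Csf2 and Csf3 were at 0. At 10 min Csf1 (10.6 ± 0.812) and Csf2ra (10.0 ± 1.26) again overlapped. At 6 h Csf2rb (5.82 ± 4.52), Csf3r (5.51 ± 3.97) and Csf1r (5.33 ± 0.773) overlapped in 3rd to 5th place, and Csf2 (2.05 ± 1.21) and Csf3 (2.17 ± 1.74) overlapped Il34 (2.68 ± 1.13) and Csf2rb2 (2.32 ± 0.936). At 24 h neighbours from Csf2ra (52.7 ± 34) down to Il34 (2.64 ± 0.223) all overlapped. At 72 h Csf2ra (92.9 ± 8.89), Csf1r (57.7 ± 7.06), Csf1 (16.3 ± 2.37) and the next gene, Csf2rb (11.4 ± 0.756), stood apart in every library, with Csf1r now above Csf1. Csf3r (9.59 ± 1.72) overlapped Csf2rb, and Csf2rb2 (6.58 ± 0.279) and Il34 (2.68 ± 0.506) followed.

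Other genes of the same signalling routes were taken from lists of 51 genes, of which 47 were tested. Il3, Il5, Il5ra and Gfi1 were not tested, Il3 because it had no row and the others because of low counts. At 10 min 0 of 47 were called by edgeR (5 at an unadjusted p under 0.05, 0 by DESeq2). At 1 h 2 were called, both higher, the transcription factors Egr2 and Cebpd. At 6 h 27 were called higher and 5 lower, at 24 h 33 and 4, and at 72 h 33 and 5, where 16.3%, 23.7% and 34.2% of all genes were called higher and 28.4%, 43.8% and 66.4% were called in all. The median log2 difference over the 47 genes was 0.79, 1.18 and 1.78, and the median over all genes tested was -0.01, 0.01 and 0.03.

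The neutrophil marker sum was above sham in every library of every ligated group. The monocyte and macrophage sum was above sham in every library at 10 min, 24 h and 72 h. At 10 min the margin was small (197 to 226 CPM, against 168 to 196 CPM in sham). The part of these cells in the pathway changes was not tested. Of 17 kinases and adaptors, 14 rose at 24 h and 0 fell, where 23.7% of all genes were called higher and 43.8% in all. Fgr, among the 14, read 0.242 CPM in sham and 15.7 CPM at 24 h. It passed the filter on low counts through ligated groups in which it was high, so its call adds no support. Fcer1g, an adaptor of immune receptors, stood at 46.5 ± 20.1 CPM against 8.03 ± 1.56 CPM in sham (log2 2.52 ± 0.29, edgeR adjusted p = 1.36e-05). The kinase Syk stood at 72.9 ± 28.2 against 23.8 ± 2.48 CPM (1.61 ± 0.21, 2.4e-05). Among the STAT factors at 6 h, Stat3, which Csf3r activates, rose from 118.8 ± 3.24 to 330 ± 65.6 CPM (1.47 ± 0.15, 3.86e-06), while Stat5b, which acts below the Csf2 receptor, fell (-0.32, 0.0324). The call of Stat5b was lost without 6 h replicate 1 or 3 (0.129 and 0.114) and without any 1 of the sham libraries (0.0706 to 0.0853). Of 8 feedback inhibitors and other STAT targets 6 rose at 6 h, where 16.3% of all genes were called higher. Among them Socs3, the inhibitor of Csf3r signalling, rose from 6.10 ± 0.473 to 211 ± 130 CPM (5.12 ± 0.67, 0.000135, and 4.49 without replicate 1 at 6 h). The kinase Pim1 (1.75, 0.00195) and Socs2 (0.39, 0.00873) rose too. Socs2 lost its call with library totals alone (0.28, adjusted p = 0.0606). Cish, a target of Stat5, was called lower at 72 h (-1.43 ± 0.25, adjusted p = 9.29e-05).

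Of 9 tested myeloid transcription factors, all 9 rose at 24 h, where 23.7% of all genes were called higher. Egr2, a factor of macrophage activation, stood at 7.43 ± 3.11 CPM against 0.444 ± 0.195 CPM in sham (log2 4.01 ± 0.38, edgeR adjusted p = 1.19e-06). Irf8, a monocyte lineage factor, stood at 23.0 ± 7.39 against 7.87 ± 0.466 CPM (1.55 ± 0.21, 3.11e-05), and Cebpa, which regulates Csf3r in granulocyte progenitors, at 21.4 ± 2.03 against 9.87 ± 2.16 CPM (1.11 ± 0.16, 3.34e-05). Il3ra, the alpha chain of the interleukin 3 receptor and partner of both beta chains, was called only at 72 h, at 26.2 ± 3.16 against 6.59 ± 0.684 CPM (1.99 ± 0.16, 4.4e-09). Of the proteases that shed Csf1 and Csf1r from membranes, Adam17 (1.02 ± 0.12, 9.63e-07) and Adam10 (0.99 ± 0.11, 3.18e-07) rose at 72 h, as did Sdc1, a syndecan that binds Il34 (2.53 ± 0.33, 8.21e-06). Ptprz1, another Il34 receptor, was called lower at 6, 24 and 72 h and read 1.21 ± 0.225 CPM in sham. All 3 of its calls were lost by limma (adjusted p = 0.0658, 0.0511 and 0.182). The call at 72 h was also lost with library totals alone (edgeR adjusted p = 0.0786).

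Of the receptor tyrosine kinases related to Csf1r, Kit was called higher at 24 h and Flt3 read higher, while their ligands were called lower. Flt3 read 0.0851 ± 0.0775 CPM in sham, under the floor of 3 counts per library (0.147 CPM), and 1.17 ± 0.294 CPM at 24 h. It passed the filter on low counts only through later groups, in which it was high. It is therefore described by level only, although the pathway counts above include it. Kit rose from 7.39 ± 2.29 to 16.8 ± 7.77 CPM (log2 1.18 ± 0.36, edgeR adjusted p = 0.0142). Without replicate 3 at 24 h its value was 0.74 (0.0935). Without sham replicate 2 or 3 its adjusted p was 0.0554 or 0.0614. Of the ligands, Kitl stood at 90.4 ± 8.04 against 118.8 ± 1.65 CPM (-0.39 ± 0.10, 0.00423) and Flt3l at 2.69 ± 0.897 against 4.99 ± 1.06 CPM (-0.88 ± 0.33, 0.0395, and 0.0658 to 0.15 when replicate 1 or 3 of sham or of 24 h was left out). With library totals alone both ligands kept their sign at 24 h and lost their call (Kitl adjusted p = 0.16, Flt3l 0.121).

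Genes whose course over the 18 libraries was nearest to each member were found by the root mean square difference of centred log2 CPM, among the 11683 genes that averaged 50 counts or more. For Csf1r these were Scpep1 (0.157), Arap1 (0.171) and Slc29a3 (0.173), beside a spread of Csf1r itself of 0.924. For Csf2rb they were Ccr1 (0.324), a chemokine receptor, then Csf2rb2 (0.433) and Slfn1 (0.442), beside a spread of 2.2, and for Csf2rb2 they were Csf2rb, Ccr1 and Lilr4b. The nearest to Csf3r were Ccl2 (0.509), Slc16a3 (0.531) and the neutrophil marker Mmp9 (0.54), beside a spread of 2.14. Csf2ra lay nearest to Clic1 (0.263), Actb (0.268) and Aebp1 (0.28). The nearest genes to Csf1 were Ftsj3 (0.161), Nat10 (0.174) and Rrp8 (0.177), which act in RNA modification and ribosome production, beside a spread of 0.379. Il34 lay nearest to Lzts2, Ramp2 and Slc25a28 (0.155 to 0.189, beside 0.319). Csf2 and Csf3 shared Hdc (0.668 and 0.689, beside spreads of 1.63 and 2.02), the histamine-forming enzyme, which is also in the neutrophil marker list. Hdc was followed by Bcr and Akap12 for Csf2. For Csf3 it was followed by the heat shock genes Hspa1a and Hspa1b, near copies of each other. Outside 6 h Csf2 and Csf3 were at or near 0 except in replicate 3 at 24 h. Their nearest genes were thus set mainly by a high level at 6 h and add no support.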

How the data were processed

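RNA from 18 mice was sequenced as 1 poly(A)-selected library per mouse. The authors deposited read counts per Ensembl gene (30583 genes) and FPKM values. Per the submitters' processing notes the tools were cutadapt 1.18, HISAT2 2.1.0 and featureCounts and the genome build was mm10; their settings, the annotation and any use of strand are not given in the sources used here. The deposited FPKM columns of replicates 2 and 3 at 6 h hold each other's counts, so levels per length were computed here from the counts and from gene lengths recovered from the FPKM values (whole numbers within 0.01 base for all 10452 genes that reached 50 counts in each library). Total counts ranged from 18.2 to 25.1 M.

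The count model was edgeR 4.0.16 under R 4.3.3: filterByExpr (14272 genes removed), TMM scaling, 1 mean per group over all 18 libraries, glmQLFit (robust) and two-sided glmQLFTest, with Benjamini-Hochberg adjustment over all 16311 genes and a threshold of 0.05. The code was tested on simulated counts. The ratio of Csf1 to Il34 was compared by an exact permutation test. A floor of 3 counts per library stood in for groups at 0, and it and the counting intervals cover counting error only, since no molecular identifiers are described. Alternatives were RLE scaling, library totals alone, 2 other filters, DESeq2 1.42.0, limma 3.58.1 on log2(FPKM + 1), the 6 libraries of a comparison alone, a replicate block, and each library left out. Gene positions and symbols are those of the mm10 annotation matched by Ensembl ID.

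The members, pathway lists and marker lists were chosen with earlier results of these data known. All 9 members are described; from each pathway list the text names 3 genes, those of lowest adjusted p at its time of most calls, and others where a count was 5 or fewer; for each member the 3 genes nearest in course are named. Some genes that this rule names are not reported here.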

Additional observations from a re-analysis of the deposited data

Results flagged for a closer look

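For 2 of the 9 genes, all 3 libraries of one time lay above sham while all 3 libraries of another time lay below it. Csf1 was lower than sham at 10 min (log2 difference -0.22) and at 1 h (-0.52) and higher at 6 h (0.31). The difference between 6 h and 1 h was tested directly and was called by edgeR (log2 0.83, adjusted p = 0.00408, higher in 3 of 3 libraries); the difference between 6 h and 10 min was not tested. Csf1r was lower than sham at 6 h (-0.36) and higher at 24 h (0.62) and 72 h (2.38). The difference between 24 h and 6 h was called by edgeR (0.98, adjusted p = 0.000185, higher in 3 of 3 libraries); the difference between 72 h and 6 h was not tested. None of the values of Csf1 at 10 min, 1 h and 6 h, nor that of Csf1r at 6 h, was called against sham by itself.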

How the results depend on the processing

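Over the 81 comparisons of single members, 1999 of 2076 values under an alternative kept their direction and side of the threshold or changed sign with no call on either side (42 of them); 45 lost a call, 30 gained one and 2 reversed. The reversed values were Csf1 at 72 h against sham with library totals alone (0.42) and Csf2rb2 at 24 h against 6 h without 24 h replicate 3 (-1.06; with 1 library left out this value ranged from -1.06 to 0.59). Under library totals alone the median log2 difference over all genes (6, 24 and 72 h) became -0.116, 0.203 and 0.612. Of the called genes 40.6%, 75.5% and 79.9% were then higher, in place of 57.2%, 54% and 51.4%; limma on log2(FPKM + 1) gave 37.7%, 74.1% and 80%. Members called, Csf2 and Csf3 included, changed from 0 to 2 at 1 h (6 libraries alone), from 5 to 3 at 6 h (at least 10 counts in every library, where Csf2 and Csf3 were not tested), from 3 to 1 at 24 h against 6 h (6 libraries alone), and from 3 to 1 at 72 h against 24 h (library totals alone, and 6 libraries alone). Pathway genes called changed from 0 to 4 at 10 min and from 2 to 5 at 1 h (6 libraries alone) and from 2 to 4 at 1 h (DESeq2). At 10 min all genes called numbered 12, but 26 with no filter, 58 by DESeq2 and 360 with the 6 libraries alone, and 2 by limma; at 1 h 48, but 93 by DESeq2 and 190 with the 6 libraries alone.

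The counts of members called with 1 library left out include Csf2 and Csf3, which the counts given first for 6 h leave out. They ranged from 5 to 7 at 6 h, 5 to 7 at 24 h and 5 to 6 at 72 h. Between consecutive times they ranged from 4 to 7 at 6 h against 1 h and 2 to 4 at 24 h against 6 h. At 72 h against 24 h they ranged from 2 to 5 (5 without 24 h replicate 3), and for any time from 8 to 9. Pathway genes called ranged from 2 to 4 at 1 h (4 without 24 h replicate 3), 23 to 34 at 6 h, 31 to 38 at 24 h and 37 to 42 at 72 h. The log2 ratio of Csf1 to Il34 against sham ranged from -0.102 to 0.125 at 10 min (main value -0.0167), -0.883 to -0.561 at 1 h, -0.133 to 0.53 at 6 h, 0.188 to 0.756 at 24 h and 0.0558 to 0.505 at 72 h. The causes were not tested.

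Whether replicate numbers pair the mice could not be told. Over 45 pairs of libraries with the same number, deviations from group means correlated at -0.256 to 0.252 (median 0.0351). The median between libraries of different number was -0.0128, and 9 of 18 libraries correlated best with their own number. With few libraries a group, such weak correlations cannot exclude a pairing or a batch by number. With the replicate block the calls of Csf1 at 24 h (adjusted p = 0.065) and of Csf3 at 72 h against 24 h (0.0559) were lost, and no other call of a member changed. Csf2 and Csf3 rest on 105 and 196 counts over the 6 h libraries, and depth limits what can be said of them elsewhere.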
